A study of Homo sapiens with 12 samples.

Results

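RNA levels of 47 genes of DNA replication and its E2F regulators were compared in a pair of human B-cell lymphoblastic leukemia cell lines. The lines, NALM-6 and REH, were grown for 48 h in cerebrospinal fluid (CSF) or in standard media. The genes were taken by symbol from a list, and all 47 of 47 had at least 1 CPM in at least 3 libraries, also when NALM-6 media 1 and REH CSF 3 were left out. They are 47 of the 14364 genes that passed this filter, out of 60617 in the table. CPM is the number of reads of a gene scaled to a total of 1000000 reads per library. The groups were NALM-6 in human CSF, NALM-6 in media (RPMI with 10% FCS), REH in human CSF and REH in the same media. Each of the 4 groups had 3 RNA-seq libraries, 12 in all, named by line, medium and replicate number. No label names a drug, a genotype change or a transgene, and both lines are established cultures grown here as bulk populations. The labels do not say whether replicates were separate cultures or how many donors the CSF came from, so the spread behind each p-value may be technical.

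E2F transcription factors bind DNA with DP partner proteins and switch on genes needed for S phase, while the RB family, known as pocket proteins, restrains them. Replication then proceeds in steps. Origins are licensed by loading the MCM helicase, the helicase is activated, and the clamp PCNA with its loader holds the polymerases on the template. Short Okazaki fragments are joined, and chromatin assembly factor places histones on the new DNA. Leukemic lymphoblasts divide continuously, and antimetabolites used in this disease act on cells that are making DNA.

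The promoters of these genes are known for E2F sites, so the stretches that hold an E2F form are shown for 4 members described below. Sequences came from RefSeq on GRCh38.p14, the 250 bases before each gene's start, and 41 of the 47 members were in that table. For 32 of these 41, bases just after the start were found in a GENCODE 29 transcript of the gene. The E2F forms searched were TTTGGCGC, TTTCCCGC, TTTCGCGC and TTTGCCGC, on both strands, and overlapping matches were each counted. At least 1 form was present in 16 of 41 member promoters (39.0%), against 761 of 27305 RefSeq promoters (2.79%) and 451 of 10032 promoters of genes tested here (4.5%). The 16 genes were E2F1, E2F2, E2F3, RBL1, CDC25A, CDT1, MCM3, MCM6, MCM7, GINS2, PCNA, RFC3, POLA1, POLA2, POLE and LIG1. By GENCODE gene positions, the whole stretches of CDT1, MCM7, GINS2 and LIG1 lay inside the gene. Parts of those of POLA2, MCM3, RFC3, POLE, E2F1 and PCNA did so too. CCAAT, the site of the factor NF-Y, was present in 22 of 41 member promoters (53.7%), compared with 33.0% of all promoters in the table and 35.4% of those of genes tested. TTTGAA, a core of the cell cycle homology region of mitotic genes, was present in 1 of 41 (2.44%), compared with 13.6% of all and 8.25% of those of genes tested. A match of letters is a description and not a bound site.

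The stretch for CDC25A (chr3:48188418-48188667, minus strand) holds 1 form, whose first base lies 44 bases before the start. That for PCNA (chr20:5126627-5126872, minus strand) ends 5 bases before the start, where the GENCODE gene begins, and holds 1 form at 59 bases. RBL1 (chr20:37095998-37096247, minus strand) has forms at 26 and 16 bases, and MCM6 (chr2:135876444-135876693, minus strand) has 4 forms in overlapping pairs, at 152, 148, 90 and 86 bases. Capitals mark the E2F forms, and each sequence reads 5′ to 3′ in the direction of the gene.
CDC25A: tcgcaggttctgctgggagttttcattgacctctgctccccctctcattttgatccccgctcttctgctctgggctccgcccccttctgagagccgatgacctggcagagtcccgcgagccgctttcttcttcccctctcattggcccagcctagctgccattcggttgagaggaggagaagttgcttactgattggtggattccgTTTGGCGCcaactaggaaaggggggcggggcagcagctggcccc
PCNA: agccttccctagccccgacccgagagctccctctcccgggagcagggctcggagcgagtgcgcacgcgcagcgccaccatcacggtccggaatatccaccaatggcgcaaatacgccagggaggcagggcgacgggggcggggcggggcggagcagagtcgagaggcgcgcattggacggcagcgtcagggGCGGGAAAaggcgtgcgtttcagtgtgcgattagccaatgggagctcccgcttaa
RBL1: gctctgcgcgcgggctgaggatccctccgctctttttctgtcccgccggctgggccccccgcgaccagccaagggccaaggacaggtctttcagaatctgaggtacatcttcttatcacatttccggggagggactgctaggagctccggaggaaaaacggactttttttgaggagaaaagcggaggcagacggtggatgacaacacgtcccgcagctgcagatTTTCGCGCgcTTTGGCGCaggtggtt
MCM6: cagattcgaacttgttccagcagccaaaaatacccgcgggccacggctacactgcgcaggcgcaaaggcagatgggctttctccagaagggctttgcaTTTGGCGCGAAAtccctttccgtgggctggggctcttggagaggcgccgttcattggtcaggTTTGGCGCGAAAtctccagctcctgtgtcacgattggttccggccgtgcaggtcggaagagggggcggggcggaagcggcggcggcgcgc

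Libraries held 23412869 to 37146556 reads, so 3 reads, the most that a count of 0 allows, were worth 0.0808 to 0.128 CPM. A pair of libraries, REH CSF 3 and NALM-6 media 1, were unlike their replicates and are called the 2 divergent libraries. The share of reads on ribosomal protein genes was 9.4% in REH CSF 3 and 19.7% in NALM-6 media 1, against 5.21% to 7.71% in the other 10 libraries. Among the 47 genes, NALM-6 media 1 differed from the mean of its replicates by more than 1 log2 unit in 18, between -3.52 for E2F7 and 1.85 for POLA2. REH CSF 3 did so in 2, with E2F7 at -1.45 the lowest and POLA2 at 0.72 the highest. These deviations had a Pearson correlation with log2 exonic length of -0.28 in NALM-6 media 1 and -0.51 in REH CSF 3 over the 47 genes. It was -0.42 for NALM-6 media 2 set against media 3, and -0.15 for REH CSF 1 set against CSF 2. A relation to length was thus not particular to the divergent libraries. The spread of the deviations (SD) was 1.07 and 0.47 log2 units in the 2 divergent libraries, against 0.1 and 0.2 in those pairs. Main results are therefore given with all 12 libraries and without the 2 divergent ones. Exons of 20 members overlap another annotated gene, for 12 of them a protein-coding one, where reads could be shared or split, with the longest overlap 2012 bases in POLA2.

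The B-lineage markers CD79A, CD79B, CD22, PAX5, EBF1, VPREB1 and CD24 were all present in NALM-6, and all but VPREB1 in REH. PAX5, the B-lineage commitment factor, had 836, 859.6 and 853 CPM in NALM-6 CSF against 212, 929 and 1013 CPM in NALM-6 media, and 442, 463 and 176 CPM in REH CSF against 634, 713 and 716 CPM in REH media. CD79A, a B cell receptor subunit, had 161, 155 and 163 CPM in NALM-6 CSF against 105, 119 and 107 CPM in NALM-6 media, and 336, 381 and 480.5 CPM in REH CSF against 329, 312 and 304 CPM in REH media. VPREB1, a surrogate light chain gene, stayed under 0.08 CPM in REH. Erythroid markers were at 0 in every library, as were CD3D and FCGR3A. Of 5 T cell markers, TRAC alone exceeded 0.2 CPM, with 36.1 to 41.1 CPM in NALM-6 CSF, against 5.60 to 6.96 CPM in NALM-6 media, and 74.6 to 109.8 CPM in REH CSF, against 21.2 to 24.1 CPM in REH media. The 5 monocyte markers summed to 5.19 to 6.48 CPM in NALM-6 CSF, against 1.20 to 2.59 CPM in NALM-6 media, and to 17.8 to 19.3 CPM in REH CSF, mostly CSF1R, against 5.06 to 5.51 CPM in REH media. The part of these marker differences in the results below was not tested.

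With limma on all 12 libraries and no further scaling, a subset of the replication genes was called higher in CSF in each line. No member was called lower in that fit. A gene is called here at a Benjamini-Hochberg adjusted p under 0.05 from limma, fitted on log2(CPM + 1) over all genes tested, and every difference is CSF minus media on that scale unless stated. In NALM-6, 8 members were higher and 0 lower, against a background of 10.9% and 1.23% of all genes. In REH, 13 members were higher and 0 lower, against 13.2% and 1.71% of all genes. CDC25A, CDC6, ORC6, LIG1 and CHAF1B were higher in both lines. Another 8 genes were called in REH and not in NALM-6, namely CDT1, GMNN, CDC45, GINS3, PCNA, RFC2, FEN1 and RPA2, and 3 in NALM-6 and not in REH, namely E2F7, ORC1 and POLD3. The remaining 31 members were called in neither line. Fewer members were called higher with another scaling or tool. With median-of-ratios scaling 4 members were higher and 0 lower in NALM-6 (7.75% and 2.53% of all genes), and 4 higher and 2 lower in REH (10.1% and 3.77%). With edgeR they were 4 and 0 in NALM-6 (6.5% and 2.83%), and 5 and 2 in REH (8.81% and 2.42%). Taken as shares of the members, the counts called higher in these fits were near those of all genes. The members higher in NALM-6 were CDC25A, ORC1, CDC6 and POLD3 in both, those higher in REH were CDC25A, CDC6, LIG1 and CHAF1B in both with ORC6 by edgeR, and those lower in REH were RBL1 and MCM6. In these bulk libraries, more cells in S phase and more RNA per cell cannot be told apart.

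The summed level of the 47 genes was 10410 to 10600 CPM in NALM-6 CSF, against 7741 to 8921 CPM in NALM-6 media, and 9893 to 10500 CPM in REH CSF, against 8234 to 8490 CPM in REH media. The median difference was 0.35 in NALM-6 (0.25 over all genes tested) and 0.27 in REH (0.07 over all genes). Of the 47 differences, 41 were above 0 in NALM-6 and 39 in REH. The medians over all genes were also above 0, so these counts alone do not set the members apart. Every CSF library was above every media library for 28 members in NALM-6 and 24 in REH, a pattern found in 35.8% and 28.8% of all genes. Every CSF library was below every media library for 0 members in NALM-6 (10.9% of all genes) and for 4 in REH, namely RBL1, MCM6, DBF4 and E2F4 (14.3% of all genes). Median-of-ratios scaling moved the median of all genes in NALM-6 to 0.05 and in REH to 0.00. With it, the members' medians were 0.08 and 0.18, and 30 and 32 differences were above 0.

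**Figure D1:**
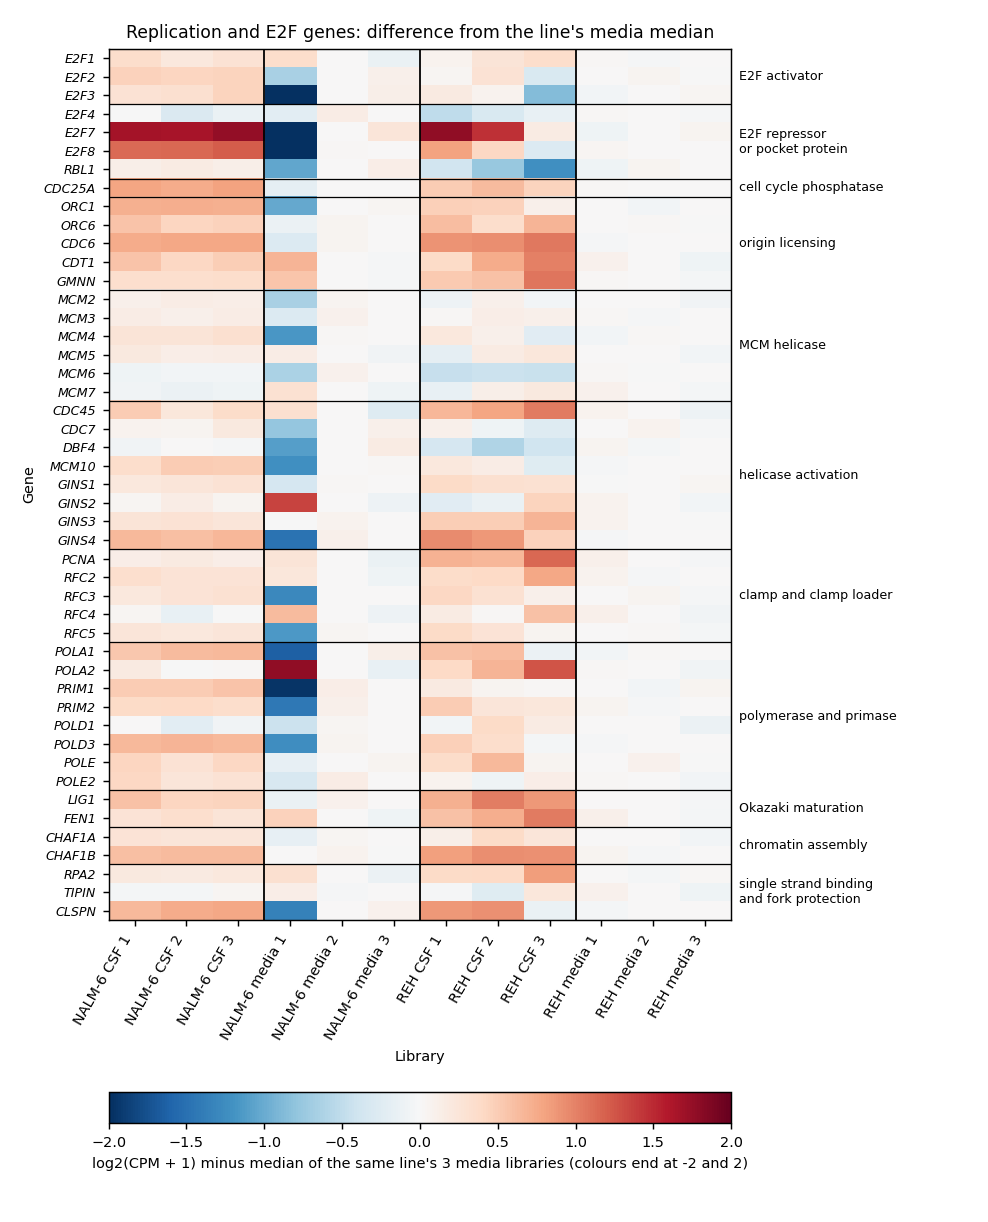
Heat map of the 47 genes (rows, by role) in the 12 libraries (columns, CSF left of media in each line), coloured by log2(CPM + 1) minus the median of the same line's 3 media libraries. Origin licensing genes are red across the CSF columns of both lines, while NALM-6 media 1 departs from its replicates, by -3.52 for E2F7 and 1.85 for POLA2.

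Without NALM-6 media 1 and REH CSF 3, more members were called higher in each line, as were more of all genes. In NALM-6, 33 members were higher and 0 lower, against 29.8% and 11.0% of all genes. In REH, 29 were higher and 5 lower, against 32.1% and 13.7%. All 8 and all 13 genes called with 12 libraries were among them, and 28 were higher in both lines. The share of all genes higher in both lines was not computed, for this fit or with all 12 libraries. The members' median difference was 0.29 in NALM-6 and 0.35 in REH, each beside 0.09 over all genes. CDC7, MCM2, MCM3, MCM5, MCM7, POLD1, RFC4 and TIPIN were called in neither line.

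Single libraries and the model also moved the counts. The share of all genes called changes with the fit too. For genes higher in NALM-6 CSF it was 10.9% with all 12 libraries and 29.8% without the 2 divergent ones. The counts below therefore describe the fits and not the members alone. In NALM-6, 3 members were called higher when each CSF library in turn was left out, 15 without media 1 and 14 without media 3, while in REH 8 were called without media 1 or media 3 and 21 without NALM-6 media 1. Without NALM-6 media 1, 4 members were also called lower in REH. Deviations of same-numbered NALM-6 libraries correlated above 0.1, which cannot show that they pair. With the replicate number as a block 2 members were called in NALM-6, CDC25A and CDC6. CDC6 and CDC25A in NALM-6, and CDC6, LIG1 and CHAF1B in REH, were called in every alternative tried.

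The E2F genes themselves come first. E2F1, E2F2 and E2F3 encode the activators, E2F4 works mostly in repression with pocket proteins, and E2F7 and E2F8 encode atypical factors that repress E2F targets and are themselves E2F targets. None of the 3 activator genes was called in either line with all libraries, and of the other 4 genes E2F7 was higher in NALM-6.

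E2F7 (ENSG00000165891, chromosome 12, 77021247 to 77065580 on GRCh38) had 103, 102 and 109.5 CPM in NALM-6 CSF against 2.10, 31.7 and 37.8 CPM in NALM-6 media. Its value of 2.10 CPM in NALM-6 media 1 rested on 61 reads. In REH, E2F7 had 168, 134 and 54.1 CPM in REH CSF against 45.1, 48.1 and 50.1 CPM in REH media. All CSF libraries were above all media libraries of their line, with REH CSF 3 close to media. The difference was called in NALM-6 (log2 2.74, SE 0.80, adjusted p = 0.0496, 0.0743 with the block) and not in REH (log2 1.15, SE 0.80, adjusted p = 0.459). The NALM-6 call was lost in 9 of 12 fits that left out 1 library (adjusted p = 0.0526 to 0.139), those without each single NALM-6 CSF library and each single REH library, and with median-of-ratios scaling and edgeR (0.0523 and 0.0852). Without the 2 divergent libraries E2F7 was higher by 1.57 (95% interval 1.35 to 1.78, adjusted p = 3.22e-07) in NALM-6 and by 1.63 (95% interval 1.41 to 1.84, adjusted p = 1.21e-07) in REH, which made it the member with the largest difference in each line.

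E2F8 had 142, 143 and 149.7 CPM in NALM-6 CSF against 5.74, 64.6 and 63.9 CPM in NALM-6 media, and 94.7, 71.5 and 44.2 CPM in REH CSF against 54.9, 53.5 and 53.5 CPM in REH media. The 3 NALM-6 CSF values lay at more than 2 times the highest media value, and REH CSF 3 lay below the REH media range. The difference was not called in NALM-6 (log2 2.25, SE 0.71, adjusted p = 0.0669) or REH (log2 0.30, SE 0.71, adjusted p = 0.86). With the 2 divergent libraries left out, it was 1.16 (95% interval 0.96 to 1.36, adjusted p = 2.14e-06) in NALM-6 and 0.60 (95% interval 0.40 to 0.80, adjusted p = 0.000236) in REH.

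Among the activators, E2F1 had 258, 233 and 246 CPM in NALM-6 CSF against 257, 201 and 183 CPM in NALM-6 media, and 177, 201 and 215 CPM in REH CSF against 172, 166 and 169 CPM in REH media. NALM-6 media 1 reached the level of the CSF libraries, and in REH the groups did not overlap. E2F2 had 581, 569 and 576 CPM in NALM-6 CSF against 268, 421 and 449 CPM in NALM-6 media, and 280.2, 331 and 220.4 CPM in REH CSF against 271, 283 and 269.5 CPM in REH media. The NALM-6 groups did not overlap, and REH CSF values spanned the media range. E2F3 had 107, 109 and 119 CPM in NALM-6 CSF against 14.2, 87.3 and 94.6 CPM in NALM-6 media, and 137, 126 and 65.2 CPM in REH CSF against 116, 120.2 and 124 CPM in REH media. Both divergent libraries were the lowest of their line for E2F3. The NALM-6 differences were 0.21 (adjusted p = 0.302) for E2F1, 0.63 (adjusted p = 0.0695) for E2F2 and 1.15 (adjusted p = 0.195) for E2F3, and those in REH were 0.22 (adjusted p = 0.412), -0.01 (adjusted p = 1) and -0.20 (adjusted p = 0.892) in the same order. In the 10 other libraries all 3 were called higher in NALM-6, at 0.35, 0.40 and 0.29 (adjusted p = 0.0016, 0.000516 and 0.00454), and none in REH, at 0.16, 0.15 and 0.13 (adjusted p = 0.0756, 0.0868 and 0.122).

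RBL1, which encodes the pocket protein p107, had 61.1, 63.2 and 61.4 CPM in NALM-6 CSF against 26.9, 56.5 and 62.0 CPM in NALM-6 media, and 64.7, 50.1 and 35.8 CPM in REH CSF against 80.3, 88.0 and 85.0 CPM in REH media. In REH every CSF library was below every media library, whereas the NALM-6 groups overlapped. The REH difference was the most negative of any member and was not called with 12 libraries (log2 -0.78, SE 0.29, adjusted p = 0.118), though it was called with median-of-ratios scaling (adjusted p = 0.0191) and with edgeR (0.0349), and that in NALM-6 was 0.43 (adjusted p = 0.3). E2F4 had 164, 135 and 149 CPM in NALM-6 CSF against 141, 182 and 165 CPM in NALM-6 media, and 104, 120.2 and 134 CPM in REH CSF against 151, 148 and 146 CPM in REH media. Here too the REH CSF libraries lay below media (-0.32, adjusted p = 0.199), while the NALM-6 groups overlapped (-0.12, adjusted p = 0.559). When the 2 divergent libraries were omitted, both genes were called lower in REH, RBL1 at -0.56 (95% interval -0.76 to -0.36, adjusted p = 0.000428) and E2F4 at -0.41 (95% interval -0.59 to -0.22, adjusted p = 0.00198). In NALM-6 RBL1 was then at 0.06 (95% interval -0.14 to 0.27, adjusted p = 0.641) and E2F4 at -0.21 (95% interval -0.40 to -0.03, adjusted p = 0.0608). In those 10 libraries E2F4 was called lower in NALM-6 with median-of-ratios scaling (-0.31, adjusted p = 0.00853) and with edgeR (-0.29, adjusted p = 0.00823). Exons of RBL1 and E2F8 overlap antisense genes, and the strand setting of the counting is not given in the sources used here.

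CDC25A encodes the phosphatase that removes inhibitory phosphates from cyclin-dependent kinases at the start of S phase (ENSG00000164045, chromosome 3, 48157146 to 48188402). It had 218, 213 and 221 CPM in NALM-6 CSF against 111, 127 and 127 CPM in NALM-6 media, and 76.2, 83.2 and 73.6 CPM in REH CSF against 54.4, 53.5 and 53.5 CPM in REH media. All CSF libraries were above all media libraries of their line, and every NALM-6 value was above every REH value. CDC25A was higher in NALM-6 (log2 0.83, SE 0.11, adjusted p = 0.000803, 0.0267 with the block) and in REH (log2 0.52, SE 0.11, adjusted p = 0.00883), 1.78-fold and 1.43-fold. Over the remaining 10 libraries the differences were 0.77 (95% interval 0.65 to 0.89, adjusted p = 7.23e-07) and 0.56 (95% interval 0.44 to 0.67, adjusted p = 6.7e-06).

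**Figure D2:**
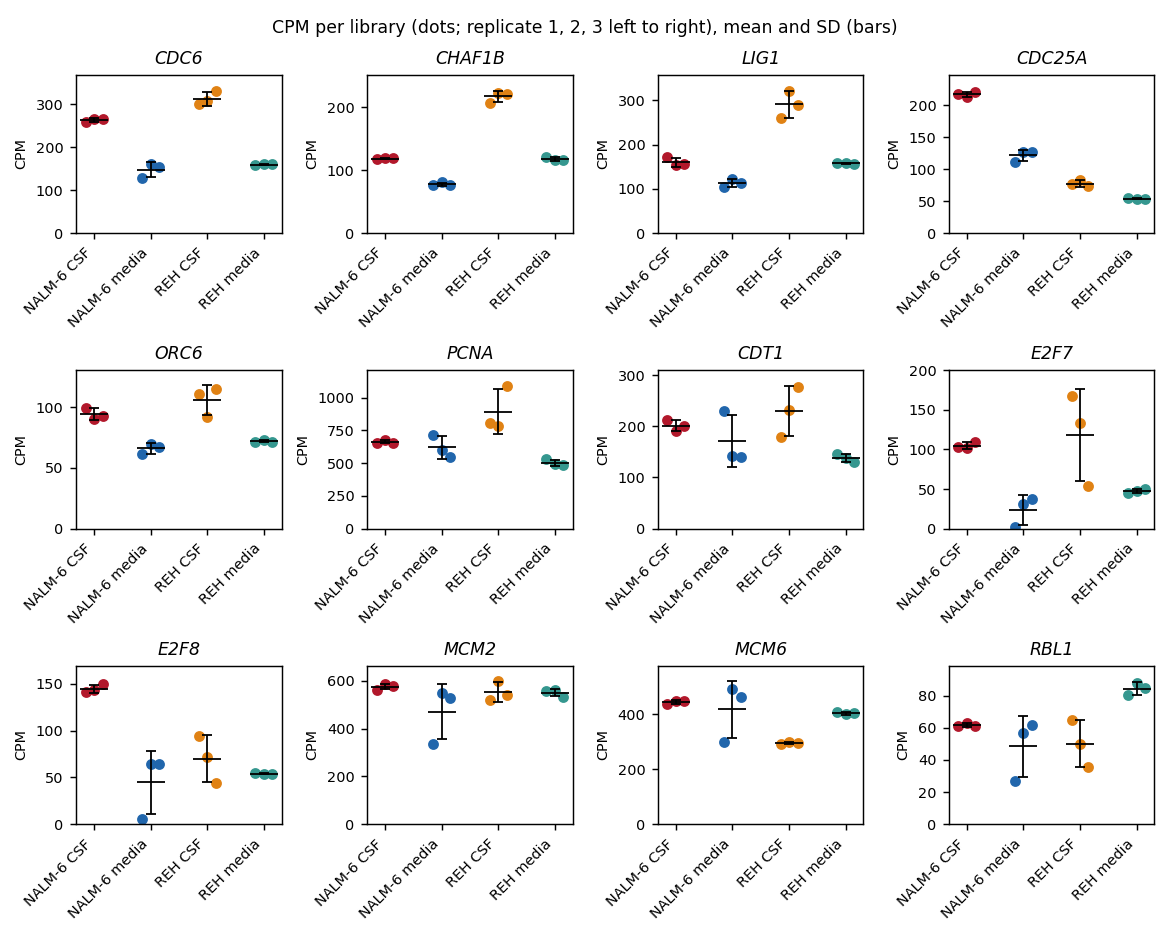
CPM of 12 members by group (dots, replicates 1 to 3 from left to right, with mean and SD as bars). In CDC6, CHAF1B, LIG1, CDC25A and ORC6 each CSF group lies wholly above its media group, whereas MCM2 overlaps in REH and MCM6 and RBL1 lie below media in REH CSF.

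By number of calls, origin licensing came first in each line by limma on all 12 libraries without further scaling. Roles differ in size, from 1 to 8 genes. CDC25A, alone in its role, was called in both lines, and LIG1 and FEN1, both genes of Okazaki maturation, in REH. ORC1 and ORC6 encode subunits of the origin recognition complex, CDC6 and CDT1 the loaders of the MCM helicase, and GMNN geminin, the inhibitor of CDT1. Of these 5 genes 3 were higher in NALM-6 and 4 in REH, beside 10.9% and 13.2% of all genes. Without the 2 divergent libraries all 5 were higher in both lines, beside 29.8% and 32.1% of all genes. With median-of-ratios scaling of all libraries, ORC1 and CDC6 were called in NALM-6 and CDC6 alone in REH. Their summed level was 810 to 830 CPM in NALM-6 CSF, against 539 to 576 CPM in NALM-6 media, and 861 to 1000 CPM in REH CSF, against 550 to 568 CPM in REH media.

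CDC6 (ENSG00000094804, chromosome 17, 40287633 to 40304657) had 259, 267 and 266 CPM in NALM-6 CSF against 128, 161 and 155 CPM in NALM-6 media, and 299.8, 307 and 332 CPM in REH CSF against 158, 160.1 and 160.0 CPM in REH media. The groups were well apart in both lines, with the 3 REH media libraries almost equal. CDC6 was higher by a log2 of 0.84 in NALM-6 (SE 0.12, adjusted p = 0.00126, 0.0266 with the block) and 0.97 in REH (SE 0.12, adjusted p = 0.00025), 1.79-fold and 1.96-fold. In the fit of 10 libraries the values were 0.74 (95% interval 0.64 to 0.84, adjusted p = 3.2e-07) and 0.92 (95% interval 0.82 to 1.03, adjusted p = 2.2e-08).

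ORC1 had 166, 168 and 165 CPM in NALM-6 CSF against 49.2, 101 and 104 CPM in NALM-6 media, and 171, 169 and 132 CPM in REH CSF against 123, 118 and 123 CPM in REH media. Every CSF library exceeded media in both lines, with REH CSF 3 the lowest of its group. ORC6 had 99.6, 90.2 and 92.7 CPM in NALM-6 CSF against 61.4, 69.7 and 66.8 CPM in NALM-6 media, and 110.4, 91.7 and 115 CPM in REH CSF against 71.6, 72.9 and 71.1 CPM in REH media. Its groups did not overlap either. ORC1 was called in NALM-6 (log2 1.04, SE 0.25, adjusted p = 0.0215, 0.059 with the block) and not in REH (log2 0.36, SE 0.25, adjusted p = 0.447). ORC6 was called in NALM-6 (log2 0.51, SE 0.12, adjusted p = 0.0233, 0.118 with the block) and in REH (log2 0.54, SE 0.12, adjusted p = 0.0122). Both NALM-6 calls were lost when any 1 of the 3 NALM-6 CSF libraries was left out (adjusted p = 0.072 to 0.0741 for ORC1 and 0.0642 to 0.105 for ORC6), and the ORC6 call in REH without REH media 1 or 3 (0.051 and 0.0543). With median-of-ratios scaling and edgeR ORC6 in NALM-6 was at 0.24 and 0.23 and lost its call (adjusted p = 0.246 and 0.28), and in REH the adjusted p was 0.053 and 0.0477. Once the 2 divergent libraries were dropped, ORC1 was higher by 0.70 in NALM-6 and 0.48 in REH, and ORC6 by 0.46 and 0.48 (adjusted p at most 0.000576).

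CDT1 had 212, 191 and 201 CPM in NALM-6 CSF against 229, 142 and 141 CPM in NALM-6 media, and 179.6, 232 and 278 CPM in REH CSF against 146, 138 and 129 CPM in REH media. NALM-6 media 1 lay above all NALM-6 CSF libraries, while media 2 and 3 lay below them. GMNN had 93.3, 93.7 and 94.1 CPM in NALM-6 CSF against 108, 73.8 and 72.7 CPM in NALM-6 media, and 100.3, 105 and 146 CPM in REH CSF against 70.1, 69.2 and 67.1 CPM in REH media. The same library again stood above the NALM-6 CSF values, and REH CSF 3 was the highest REH library for both genes. Both were called in REH, CDT1 at log2 0.72, SE 0.21, adjusted p = 0.0435 and GMNN at log2 0.74, SE 0.19, adjusted p = 0.021, and not in NALM-6 (0.27, adjusted p = 0.357 and 0.16, adjusted p = 0.53). The CDT1 call in REH was lost in 8 of 12 fits without 1 library (adjusted p = 0.0678 to 0.148) and the GMNN call in 4 (0.0637 to 0.0785), REH CSF 3 and every REH media library among them for both genes. Both calls were also lost with median-of-ratios scaling (0.22 for CDT1 and 0.156 for GMNN) and edgeR (0.197 and 0.138). Without the 2 divergent libraries CDT1 was higher by 0.50 (95% interval 0.30 to 0.71, adjusted p = 0.00117) in NALM-6 and 0.57 (95% interval 0.37 to 0.77, adjusted p = 0.000383) in REH, and GMNN by 0.35 (95% interval 0.24 to 0.46, adjusted p = 0.00025) and 0.57 (95% interval 0.45 to 0.68, adjusted p = 4.23e-06).

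The 6 genes of the MCM helicase, the ring that unwinds the duplex, were called in neither line by limma on all 12 libraries without further scaling. Their summed level was 3660 to 3730 CPM in NALM-6 CSF, against 2920 to 3570 CPM in NALM-6 media, and 3340 to 3680 CPM in REH CSF, against 3440 to 3550 CPM in REH media. The median difference over the 6 was 0.16 in NALM-6 and 0.04 in REH.

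MCM2 had 563, 585 and 579 CPM in NALM-6 CSF against 337, 547 and 527 CPM in NALM-6 media, and 520.1, 601 and 539 CPM in REH CSF against 559, 561 and 532 CPM in REH media. In NALM-6 the gap from media 2 and 3 was small, and in REH the groups overlapped. MCM5 had 481, 460.1 and 465 CPM in NALM-6 CSF against 468, 420.2 and 398 CPM in NALM-6 media, and 388, 494 and 517 CPM in REH CSF against 442, 440.1 and 422 CPM in REH media. Both lines overlapped for MCM5. The differences were 0.32 (adjusted p = 0.211) in NALM-6 and 0.01 (adjusted p = 1) in REH for MCM2, and 0.13 (adjusted p = 0.475) and 0.09 (adjusted p = 0.761) for MCM5. With the 2 divergent libraries left out, MCM2 was at 0.10 (95% interval -0.03 to 0.23, adjusted p = 0.217) and 0.02 (95% interval -0.11 to 0.16, adjusted p = 0.799), and MCM5 at 0.20 (95% interval 0.02 to 0.37, adjusted p = 0.0751) and 0.01 (95% interval -0.17 to 0.19, adjusted p = 0.937).

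MCM6 had 435, 447 and 448 CPM in NALM-6 CSF against 298, 491 and 464 CPM in NALM-6 media, and 292, 298 and 295 CPM in REH CSF against 409, 399 and 402 CPM in REH media. In REH the 3 CSF libraries were nearly equal and all below media, and in NALM-6 the CSF libraries lay between the media values. The REH difference was not called with 12 libraries (log2 -0.45, SE 0.17, adjusted p = 0.118) and was called with median-of-ratios scaling (adjusted p = 0.00387), with edgeR (0.00969) and without the 2 divergent libraries, at -0.45 (95% interval -0.55 to -0.35, adjusted p = 1.06e-05). In NALM-6 it was 0.12 (adjusted p = 0.626) with all libraries and -0.11 (95% interval -0.21 to -0.01, adjusted p = 0.0852) without the 2. Also without the 2, MCM6 was called lower in NALM-6 with median-of-ratios scaling (-0.21, adjusted p = 0.00681) and with edgeR (-0.19, adjusted p = 0.00973).

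MCM3 had 728, 712 and 732 CPM in NALM-6 CSF against 543, 703 and 660.0 CPM in NALM-6 media, and 627, 679 and 664 CPM in REH CSF against 626, 606 and 616 CPM in REH media. MCM4 had 694, 693 and 722 CPM in NALM-6 CSF against 257, 588 and 579 CPM in NALM-6 media, and 765, 710.1 and 564 CPM in REH CSF against 640.1, 673 and 664 CPM in REH media. MCM7 had 783, 762 and 779 CPM in NALM-6 CSF against 1014, 825 and 779.6 CPM in NALM-6 media, and 748, 902 and 945 CPM in REH CSF against 876, 828 and 808 CPM in REH media. NALM-6 media 1 was the lowest library of all for MCM3 and MCM4 and the highest for MCM7. The NALM-6 differences were 0.20 (adjusted p = 0.253) for MCM3, 0.66 (adjusted p = 0.137) for MCM4 and -0.16 (adjusted p = 0.388) for MCM7, and those in REH were 0.09 (adjusted p = 0.729), 0.03 (adjusted p = 0.972) and 0.04 (adjusted p = 0.907) in that order. In the 10 other libraries MCM4 was called higher in NALM-6 at 0.27 (95% interval 0.16 to 0.38, adjusted p = 0.00121) and in REH at 0.16 (95% interval 0.05 to 0.27, adjusted p = 0.0195). Those 2 calls differ by scaling, since with median-of-ratios scaling as well the adjusted p was 0.023 in NALM-6 and 0.307 in REH.

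The genes of helicase activation differed among themselves. CDC45 and the 4 GINS subunits join the MCM ring to form the active helicase, CDC7 and its partner DBF4 form the kinase that triggers this, and MCM10 assists. Of the 8 genes 0 were called in NALM-6 and 2, CDC45 and GINS3, were higher in REH. When the 2 divergent libraries were omitted, 5 were higher in NALM-6, and 5 were higher and 2 lower in REH.

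CDC45 (ENSG00000093009, chromosome 22, 19479459 to 19520612) had 179.8, 148 and 163 CPM in NALM-6 CSF against 158, 126 and 106 CPM in NALM-6 media, and 159, 174 and 206 CPM in REH CSF against 105, 100.1 and 93.1 CPM in REH media. REH CSF was well above REH media, while in NALM-6 media 1 overlapped the CSF libraries. CDC45 was called in REH (log2 0.84, SE 0.17, adjusted p = 0.00596) and not in NALM-6 (log2 0.34, SE 0.17, adjusted p = 0.185). With median-of-ratios scaling and with edgeR the adjusted p in REH was 0.071 and 0.0665. Over the remaining 10 libraries CDC45 was higher by 0.49 (95% interval 0.29 to 0.70, adjusted p = 0.00142) in NALM-6 and 0.74 (95% interval 0.53 to 0.94, adjusted p = 5.63e-05) in REH.

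MCM10 had 218, 242 and 239 CPM in NALM-6 CSF against 71.9, 170.3 and 173 CPM in NALM-6 media, and 193, 186 and 142 CPM in REH CSF against 163, 168 and 167 CPM in REH media. NALM-6 CSF was above media in all libraries, and REH CSF 3 lay below REH media. Neither difference was called (0.85, adjusted p = 0.0836 in NALM-6 and 0.05, adjusted p = 0.953 in REH), and without the 2 divergent libraries they were 0.44 (95% interval 0.32 to 0.56, adjusted p = 8.3e-05) and 0.19 (95% interval 0.07 to 0.31, adjusted p = 0.0149). GINS4 had 124, 120.4 and 126 CPM in NALM-6 CSF against 27.7, 84.6 and 78.8 CPM in NALM-6 media, and 147, 139 and 105 CPM in REH CSF against 74.5, 76.4 and 75.8 CPM in REH media. Its CSF libraries were above media in both lines. The differences were 1.10 (adjusted p = 0.0643) and 0.76 (adjusted p = 0.202), and without the 2 divergent libraries 0.59 (95% interval 0.47 to 0.71, adjusted p = 8.67e-06) and 0.91 (95% interval 0.79 to 1.03, adjusted p = 1.33e-07).

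GINS3 had 104, 106 and 102 CPM in NALM-6 CSF against 85.7, 90.4 and 86.3 CPM in NALM-6 media, and 94.4, 94.7 and 108 CPM in REH CSF against 70.6, 66.9 and 66.7 CPM in REH media. The groups did not overlap in either line. GINS3 was called in REH (log2 0.53, SE 0.11, adjusted p = 0.00671, 0.0723 with median-of-ratios scaling and 0.0625 with edgeR) and not in NALM-6 (0.25, adjusted p = 0.153). GINS1 had 104, 107 and 109.6 CPM in NALM-6 CSF against 71.0, 91.7 and 89.9 CPM in NALM-6 media, and 124, 119.5 and 118 CPM in REH CSF against 94.2, 95.0 and 97.2 CPM in REH media. It showed the same order of groups and no call (0.35, adjusted p = 0.0955 and 0.33, adjusted p = 0.112). In the fit of 10 libraries GINS3 was higher by 0.23 in NALM-6 and 0.47 in REH, and GINS1 by 0.23 and 0.35 (adjusted p at most 0.00471). The GINS1 call in NALM-6 was lost there with median-of-ratios scaling (adjusted p = 0.0731) and edgeR (0.0535).

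GINS2 had 107, 115 and 108 CPM in NALM-6 CSF against 265, 104 and 96.8 CPM in NALM-6 media, and 93.0, 99.7 and 148 CPM in REH CSF against 114, 109 and 105 CPM in REH media. Both divergent libraries were the highest of their line, and the other libraries lay close together. The differences were -0.33 (adjusted p = 0.475) in NALM-6 and 0.02 (adjusted p = 0.988) in REH. Without the 2 libraries they were 0.13 (95% interval 0.00 to 0.27, adjusted p = 0.109) and -0.18 (95% interval -0.32 to -0.05, adjusted p = 0.032), so the sign turned in both lines and REH was called lower.

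DBF4 had 82.3, 87.8 and 85.8 CPM in NALM-6 CSF against 40.0, 87.0 and 97.9 CPM in NALM-6 media, and 67.2, 56.0 and 64.2 CPM in REH CSF against 88.4, 82.7 and 85.2 CPM in REH media. REH CSF lay below REH media in every library. CDC7 had 86.7, 86.2 and 95.0 CPM in NALM-6 CSF against 47.6, 82.5 and 88.7 CPM in NALM-6 media, and 79.7, 69.8 and 62.1 CPM in REH CSF against 74.2, 78.2 and 72.8 CPM in REH media. Its groups overlapped in both lines. DBF4 was at 0.28 (adjusted p = 0.454) in NALM-6 and -0.45 (adjusted p = 0.373) in REH, and CDC7 at 0.34 (adjusted p = 0.27) and -0.10 (adjusted p = 0.85). Once the 2 divergent libraries were dropped, DBF4 was called lower in REH at -0.47 (95% interval -0.65 to -0.29, adjusted p = 0.000524), with -0.11 (95% interval -0.29 to 0.06, adjusted p = 0.297) in NALM-6, and CDC7 was at 0.06 (95% interval -0.10 to 0.22, adjusted p = 0.57) and -0.01 (95% interval -0.17 to 0.15, adjusted p = 0.943).

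PCNA encodes the sliding clamp that tethers polymerases to DNA (ENSG00000132646, chromosome 20, 5114953 to 5126626). It had 658, 679 and 658 CPM in NALM-6 CSF against 719, 599 and 547 CPM in NALM-6 media, and 804, 783 and 1091 CPM in REH CSF against 530.4, 494 and 484 CPM in REH media. In REH the groups were far apart, with CSF 3 the highest, whereas NALM-6 media 1 exceeded every NALM-6 CSF library. PCNA was called in REH (log2 0.81, SE 0.15, adjusted p = 0.00431) and not in NALM-6 (log2 0.11, SE 0.15, adjusted p = 0.627). With median-of-ratios scaling and edgeR the adjusted p in REH was 0.0657 and 0.0599. Without the 2 divergent libraries PCNA was higher by 0.22 (95% interval 0.09 to 0.34, adjusted p = 0.00896) in NALM-6 and 0.66 (95% interval 0.54 to 0.78, adjusted p = 2.36e-06) in REH.

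RFC2, RFC3, RFC4 and RFC5 encode subunits of the clamp loader. RFC2 had 129.7, 124 and 124 CPM in NALM-6 CSF against 119.6, 103 and 96.9 CPM in NALM-6 media, and 169, 172 and 224 CPM in REH CSF against 136, 128 and 130.2 CPM in REH media. Its CSF libraries were above media in both lines. RFC2 was called in REH (log2 0.50, SE 0.14, adjusted p = 0.0344), a call lost in 7 of 12 fits without 1 library (adjusted p = 0.0591 to 0.123), those without REH CSF 3, any 1 REH media library or any 1 NALM-6 CSF library, and not in NALM-6 (0.25, adjusted p = 0.236). The REH call was also lost with median-of-ratios scaling and edgeR (0.252 and 0.217). RFC3 had 103, 107 and 109.5 CPM in NALM-6 CSF against 35.7, 89.1 and 88.4 CPM in NALM-6 media, and 56.7, 52.4 and 45.8 CPM in REH CSF against 42.4, 44.1 and 41.9 CPM in REH media. RFC5 had 134, 132 and 134 CPM in NALM-6 CSF against 50.5, 117 and 114 CPM in NALM-6 media, and 119.5, 110.3 and 94.8 CPM in REH CSF against 91.0, 92.1 and 88.9 CPM in REH media. RFC4 had 89.6, 78.6 and 86.9 CPM in NALM-6 CSF against 136, 87.0 and 81.2 CPM in NALM-6 media, and 95.4, 86.2 and 127 CPM in REH CSF against 90.4, 84.6 and 80.6 CPM in REH media. NALM-6 media 1 was far below its replicates for RFC3 and RFC5 and far above them for RFC4. The NALM-6 differences were 0.69 (adjusted p = 0.143) for RFC3, 0.60 (adjusted p = 0.16) for RFC5 and -0.21 (adjusted p = 0.455) for RFC4, and those in REH 0.26 (adjusted p = 0.68), 0.25 (adjusted p = 0.673) and 0.25 (adjusted p = 0.548). With the 2 divergent libraries left out, RFC2, RFC3 and RFC5 were called in both lines (NALM-6 0.33, 0.26 and 0.21, REH 0.37, 0.34 and 0.34, adjusted p at most 0.00824), and RFC4 in neither (0.01 and 0.09).

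The polymerase and primase genes were mostly not called with all libraries. POLA1 and POLA2 encode polymerase alpha subunits, PRIM1 and PRIM2 the primase that starts each strand, POLD1 and POLD3 subunits of the lagging strand polymerase delta, and POLE and POLE2 subunits of the leading strand polymerase epsilon. Of the 8 genes 1, POLD3, was higher in NALM-6 and 0 were called in REH. In the 10 other libraries 6 were higher in NALM-6 and 5 in REH. Their summed level was 1050 to 1100 CPM in NALM-6 CSF, against 618 to 860 CPM in NALM-6 media, and 855 to 1110 CPM in REH CSF, against 780 to 810 CPM in REH media.

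POLD3 had 138, 139.6 and 136 CPM in NALM-6 CSF against 36.4, 90.0 and 86.9 CPM in NALM-6 media, and 96.3, 88.6 and 66.9 CPM in REH CSF against 67.6, 69.2 and 69.1 CPM in REH media. NALM-6 CSF was above media throughout, and REH CSF 3 lay just under the REH media libraries. POLD3 was called in NALM-6 (log2 1.05, SE 0.30, adjusted p = 0.0432, 0.0815 with the block) and not in REH (0.27, adjusted p = 0.672). The call was lost in 8 of 12 fits without 1 library (adjusted p = 0.0573 to 0.122), those without any 1 NALM-6 CSF or REH media library and without REH CSF 1 or 2. When the 2 divergent libraries were omitted, POLD3 was higher by 0.63 (95% interval 0.52 to 0.75, adjusted p = 4.12e-06) and 0.42 (95% interval 0.31 to 0.54, adjusted p = 6.21e-05). POLD1 had 176, 152 and 166 CPM in NALM-6 CSF against 129, 179 and 175 CPM in NALM-6 media, and 168, 228 and 196 CPM in REH CSF against 175, 174 and 160.5 CPM in REH media. Both lines overlapped for this catalytic subunit gene, with 0.05 (adjusted p = 0.873) in NALM-6 and 0.20 (adjusted p = 0.527) in REH, and with -0.10 (95% interval -0.34 to 0.13, adjusted p = 0.473) and 0.20 (95% interval -0.03 to 0.43, adjusted p = 0.136) without the 2 divergent libraries, so the NALM-6 sign turned.

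POLA2 had 26.7, 23.5 and 23.9 CPM in NALM-6 CSF against 83.1, 23.6 and 21.1 CPM in NALM-6 media, and 24.7, 30.1 and 45.8 CPM in REH CSF against 18.8, 18.5 and 17.6 CPM in REH media. Both divergent libraries were the highest of their line, NALM-6 media 1 by more than 2 times. The difference was -0.48 (adjusted p = 0.423) in NALM-6, the most negative of any member there, and 0.79 (adjusted p = 0.304) in REH. Without the 2 libraries it was 0.14 (95% interval -0.08 to 0.35, adjusted p = 0.295) and 0.55 (95% interval 0.34 to 0.76, adjusted p = 0.000693), so the NALM-6 sign turned and REH was called higher. The gene whose exons POLA2 shares is annotated as protein coding on the same strand.

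POLA1 had 197, 208 and 212 CPM in NALM-6 CSF against 42.7, 135 and 145 CPM in NALM-6 media, and 199.9, 204 and 123 CPM in REH CSF against 128, 135 and 133 CPM in REH media. In NALM-6 the groups did not overlap, and in REH only CSF 3 lay below the media libraries. PRIM1 had 41.7, 41.7 and 43.5 CPM in NALM-6 CSF against 6.71, 32.0 and 29.1 CPM in NALM-6 media, and 50.5, 45.9 and 45.2 CPM in REH CSF against 44.3, 42.6 and 46.2 CPM in REH media. PRIM2 had 60.6, 61.0 and 58.8 CPM in NALM-6 CSF against 16.4, 49.6 and 46.1 CPM in NALM-6 media, and 74.4, 61.1 and 60.5 CPM in REH CSF against 53.9, 51.1 and 51.7 CPM in REH media. For both primase genes NALM-6 CSF was above media, and in REH only PRIM2 showed no overlap. The NALM-6 differences were 1.11 (adjusted p = 0.0924), 1.14 (adjusted p = 0.113) and 0.82 (adjusted p = 0.129) for POLA1, PRIM1 and PRIM2, and in REH 0.37 (adjusted p = 0.658), 0.09 (adjusted p = 0.944) and 0.31 (adjusted p = 0.662). Over the remaining 10 libraries POLA1 was higher by 0.55 (95% interval 0.43 to 0.67, adjusted p = 1.44e-05) in NALM-6 and 0.61 (95% interval 0.49 to 0.73, adjusted p = 4.11e-06) in REH. PRIM1 was then higher in NALM-6 (0.46, adjusted p = 0.000365) and not called in REH (0.12, 0.207), and PRIM2 was higher in both (0.32 and 0.36, adjusted p = 0.00652 and 0.00279).

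POLE had 423, 385 and 416 CPM in NALM-6 CSF against 280.1, 313 and 326 CPM in NALM-6 media, and 349, 423 and 278 CPM in REH CSF against 269, 284 and 268 CPM in REH media. POLE2 had 40.0, 35.4 and 36.6 CPM in NALM-6 CSF against 23.5, 32.9 and 29.6 CPM in NALM-6 media, and 37.6, 33.6 and 39.4 CPM in REH CSF against 36.1, 35.7 and 34.4 CPM in REH media. NALM-6 CSF was above media for both genes, and the REH groups overlapped. The differences were 0.41 (adjusted p = 0.105) in NALM-6 and 0.33 (adjusted p = 0.207) in REH for POLE, and 0.38 (adjusted p = 0.107) and 0.05 (adjusted p = 0.879) for POLE2. In the fit of 10 libraries POLE was higher by 0.35 (95% interval 0.18 to 0.51, adjusted p = 0.00329) and 0.49 (95% interval 0.32 to 0.65, adjusted p = 0.00026), and POLE2 by 0.25 (95% interval 0.07 to 0.42, adjusted p = 0.0273) in NALM-6, with 0.00 (95% interval -0.17 to 0.18, adjusted p = 0.976) in REH.

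Okazaki fragments are trimmed by the flap nuclease FEN1 and sealed by DNA ligase 1, encoded by LIG1. LIG1 (ENSG00000105486, chromosome 19, 48115445 to 48170603) had 172, 153 and 155 CPM in NALM-6 CSF against 104, 122 and 114 CPM in NALM-6 media, and 261, 321 and 290.2 CPM in REH CSF against 158, 159 and 156 CPM in REH media. The groups were apart in both lines, and the REH CSF values were the highest of all. LIG1 was higher in NALM-6 (log2 0.50, SE 0.12, adjusted p = 0.0244, 0.12 with the block) and in REH (log2 0.87, SE 0.12, adjusted p = 0.000616), 1.42-fold and 1.83-fold. The NALM-6 call was lost when any 1 of the 3 NALM-6 CSF libraries was left out (adjusted p = 0.0662 to 0.113) and with median-of-ratios scaling and edgeR (0.242 and 0.264). Once the 2 divergent libraries were dropped, the differences were 0.44 (95% interval 0.26 to 0.62, adjusted p = 0.00124) and 0.87 (95% interval 0.69 to 1.05, adjusted p = 5.11e-06).

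FEN1 had 333, 346 and 328 CPM in NALM-6 CSF against 377, 274 and 259.8 CPM in NALM-6 media, and 361, 394 and 494 CPM in REH CSF against 256, 239 and 232 CPM in REH media. NALM-6 media 1 was above the NALM-6 CSF libraries, and in REH the groups were far apart. FEN1 was called in REH (log2 0.77, SE 0.17, adjusted p = 0.00937, 0.112 with median-of-ratios scaling and 0.103 with edgeR) and not in NALM-6 (0.16, adjusted p = 0.479). Without the 2 divergent libraries it was higher by 0.33 (95% interval 0.20 to 0.46, adjusted p = 0.000989) in NALM-6 and 0.64 (95% interval 0.51 to 0.77, adjusted p = 4.71e-06) in REH. Its exons overlap those of TMEM258 and FADS2.

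CHAF1A and CHAF1B encode the large and middle subunits of chromatin assembly factor, which follows PCNA. CHAF1B (ENSG00000159259, chromosome 21, 36385378 to 36419015) had 117, 119 and 119.5 CPM in NALM-6 CSF against 76.8, 80.6 and 76.0 CPM in NALM-6 media, and 207, 223 and 221 CPM in REH CSF against 122, 116 and 117 CPM in REH media. Replicates lay close together and the groups far apart, including in the 2 divergent libraries. CHAF1B was higher in NALM-6 (log2 0.60, SE 0.10, adjusted p = 0.00366, 0.0636 with the block) and in REH (log2 0.87, SE 0.10, adjusted p = 0.000168), 1.52-fold and 1.83-fold. With median-of-ratios scaling and edgeR the adjusted p in NALM-6 was 0.149 and 0.153. With the 2 divergent libraries left out, the differences were 0.59 (95% interval 0.47 to 0.71, adjusted p = 7.55e-06) and 0.86 (95% interval 0.74 to 0.98, adjusted p = 1.93e-07). CHAF1B shares 89 exonic bases with MORC3.

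CHAF1A had 236, 230.4 and 230.4 CPM in NALM-6 CSF against 173, 200.5 and 195 CPM in NALM-6 media, and 207, 249 and 226 CPM in REH CSF against 190.4, 191 and 183 CPM in REH media. Its CSF libraries were above media in both lines, by a smaller margin. The differences were not called (0.29, adjusted p = 0.122 in NALM-6 and 0.27, adjusted p = 0.176 in REH), and without the 2 divergent libraries they were 0.23 (95% interval 0.08 to 0.38, adjusted p = 0.0183) and 0.27 (95% interval 0.12 to 0.42, adjusted p = 0.0065).

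RPA2 encodes a subunit of the single strand binding complex, and claspin (CLSPN) and TIPIN protect the fork and relay checkpoint signals. RPA2 had 153, 151 and 154 CPM in NALM-6 CSF against 167, 133 and 122 CPM in NALM-6 media, and 132, 132 and 180.0 CPM in REH CSF against 100.2, 97.3 and 102 CPM in REH media. REH CSF was above REH media, and NALM-6 media 1 was above NALM-6 CSF. RPA2 was called in REH (log2 0.55, SE 0.16, adjusted p = 0.0412) and not in NALM-6 (0.13, adjusted p = 0.565). The REH call was lost in 9 of 12 fits without 1 library (adjusted p = 0.0547 to 0.135), namely any 1 NALM-6 CSF or REH media library, NALM-6 media 2, and REH CSF 2 or 3, and with median-of-ratios scaling and edgeR (0.263 and 0.227). In the 10 other libraries RPA2 was higher by 0.26 (95% interval 0.14 to 0.37, adjusted p = 0.00238) in NALM-6 and 0.40 (95% interval 0.28 to 0.51, adjusted p = 8.58e-05) in REH.

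CLSPN had 149.5, 160.2 and 163 CPM in NALM-6 CSF against 36.6, 95.0 and 101 CPM in NALM-6 media, and 192, 198 and 95.3 CPM in REH CSF against 101, 105 and 104 CPM in REH media. NALM-6 CSF was above media, and in REH CSF 1 and 2 were nearly 2 times the media level while CSF 3 was below it. The differences were 1.15 (adjusted p = 0.0731) and 0.56 (adjusted p = 0.43), and without the 2 divergent libraries 0.68 (95% interval 0.56 to 0.80, adjusted p = 2.84e-06) and 0.90 (95% interval 0.78 to 1.02, adjusted p = 1.5e-07). TIPIN had 36.3, 36.2 and 38.2 CPM in NALM-6 CSF against 40.8, 36.6 and 37.2 CPM in NALM-6 media, and 28.0, 24.0 and 33.5 CPM in REH CSF against 30.2, 28.5 and 26.8 CPM in REH media. Its groups overlapped in both lines, with -0.05 (adjusted p = 0.831) in NALM-6 and -0.01 (adjusted p = 0.984) in REH, and 0.00 (95% interval -0.18 to 0.17, adjusted p = 1) and -0.13 (95% interval -0.31 to 0.05, adjusted p = 0.214) without the 2 divergent libraries.

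**Figure D3:**
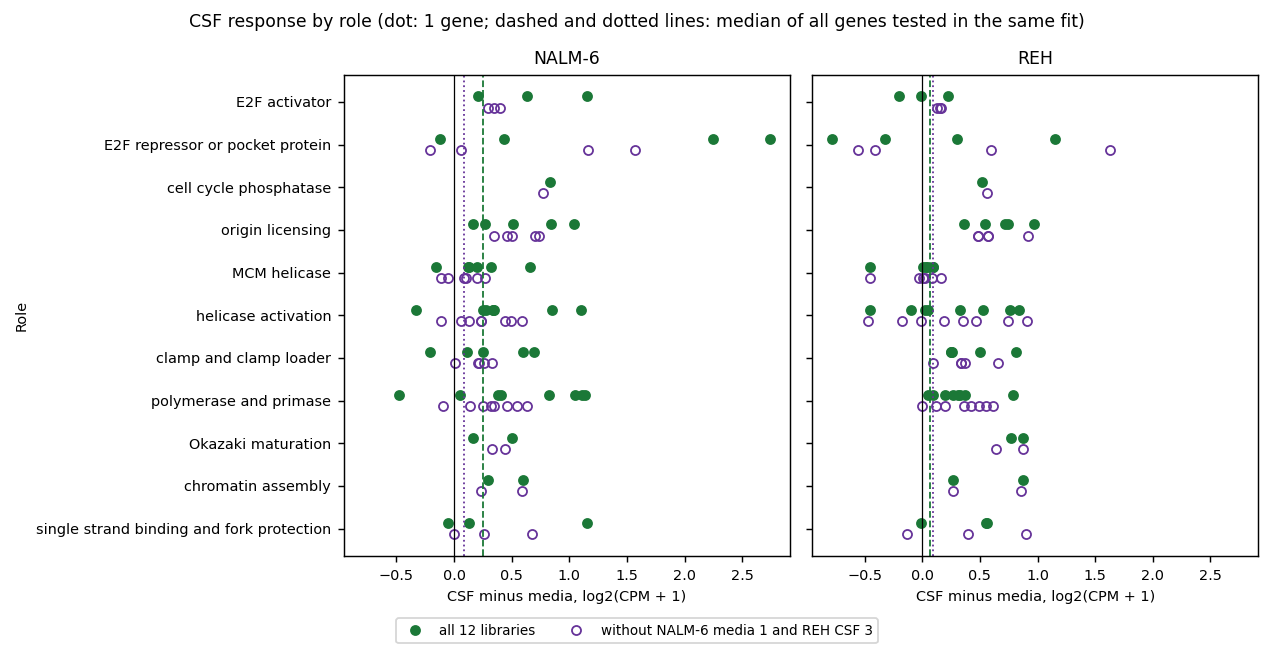
CSF minus media difference on the log2(CPM + 1) scale for each gene, by role, in NALM-6 (left panel) and REH (right panel), with all 12 libraries (filled) and with NALM-6 media 1 and REH CSF 3 left out (open). All 5 origin licensing genes lie right of 0 in both lines, MCM helicase genes run from -0.16 to 0.66 in NALM-6 and from -0.45 to 0.09 in REH with all 12 libraries, and E2F7 is the rightmost open point at 1.57 and 1.63.

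**Figure D4:**
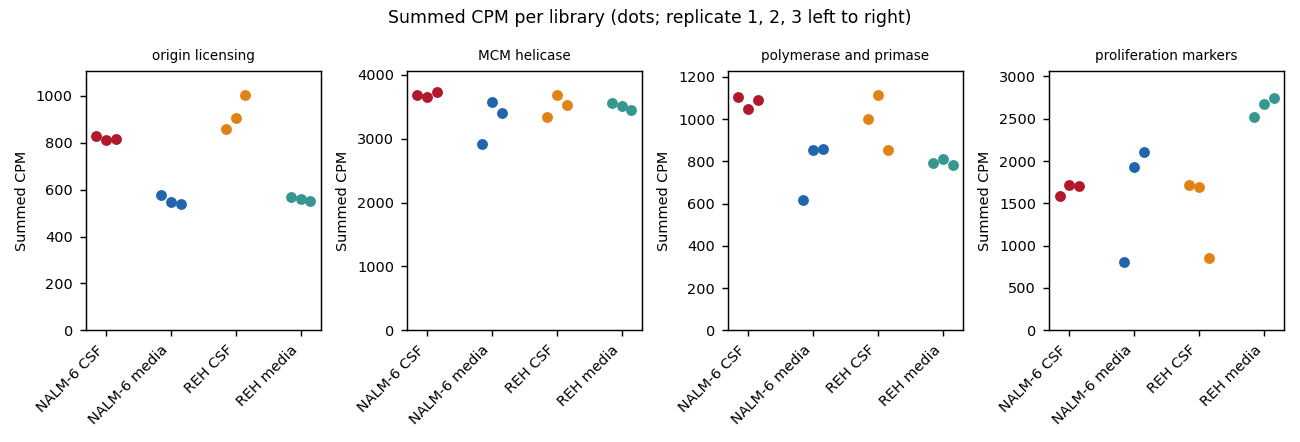
Summed CPM per library for 3 roles and the 5 proliferation markers, by group (dots, replicates 1 to 3 from left to right). Origin licensing genes sum to 810 to 830 CPM in NALM-6 CSF and 539 to 576 CPM in NALM-6 media, while the MCM helicase sums overlap in REH, at 3340 to 3680 CPM in CSF and 3440 to 3550 CPM in media.

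Proliferation markers were split. CCNB1, cyclin B1 of mitosis, had 78.8, 77.4 and 81.3 CPM in NALM-6 CSF against 165, 174 and 172 CPM in NALM-6 media, and 85.7, 84.6 and 102 CPM in REH CSF against 254, 241 and 249 CPM in REH media. CDC20, an activator of the anaphase-promoting complex, had 92.8, 92.2 and 94.5 CPM in NALM-6 CSF against 257, 225 and 208 CPM in NALM-6 media, and 69.4, 82.1 and 101 CPM in REH CSF against 311, 302 and 302 CPM in REH media. PLK1, a mitotic kinase, had 40.4, 37.7 and 37.8 CPM in NALM-6 CSF against 81.6, 138 and 138 CPM in NALM-6 media, and 56.3, 60.2 and 59.2 CPM in REH CSF against 293, 283 and 267 CPM in REH media. All 3 mitotic genes were below media in every CSF library of both lines. MKI67 and TOP2A were each lowest of their line in the 2 divergent libraries, with MKI67 at 784, 875 and 866 CPM in NALM-6 CSF against 167, 672 and 784 CPM in NALM-6 media, and 976, 1002 and 332 CPM in REH CSF against 978, 1116 and 1174 CPM in REH media. In NALM-6 every CSF value of MKI67 was at or above the highest media value, and in REH the groups overlapped. TOP2A had 589, 639.8 and 626 CPM in NALM-6 CSF against 137, 719 and 799.5 CPM in NALM-6 media, and 532, 464 and 259 CPM in REH CSF against 687, 738 and 753 CPM in REH media. The 5 markers summed to 1590 to 1720 CPM in NALM-6 CSF, against 808 to 2100 CPM in NALM-6 media, and to 853 to 1720 CPM in REH CSF, against 2520 to 2750 CPM in REH media. The part of this difference in the replication results was not tested.

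The difference of responses asks which genes responded more in one line than in the other, and is REH minus NALM-6. With all 12 libraries 0 members were higher and 0 lower, against 3.03% and 1.2% of all genes, and edgeR also called 0. PCNA had the lowest adjusted p (log2 0.70, SE 0.22, adjusted p = 0.121). The largest positive values were POLA2 at 1.27 (adjusted p = 0.297), PCNA and FEN1 at 0.60 (adjusted p = 0.238). The most negative were E2F8 at -1.95 (adjusted p = 0.298), E2F7 at -1.60 (adjusted p = 0.333) and E2F3 at -1.35 (adjusted p = 0.302), and RBL1 was at -1.21 (adjusted p = 0.177). The genes called in 1 line alone were thus not shown to differ between lines with all libraries.

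Over the remaining 10 libraries 5 members had a higher CSF response in REH than in NALM-6 and 5 a lower one, against 7.96% and 7.34% of all genes. The higher were PCNA at 0.44 (95% interval 0.27 to 0.61, adjusted p = 0.00294), LIG1 at 0.43 (95% interval 0.18 to 0.69, adjusted p = 0.0261), GINS4 at 0.32 (95% interval 0.15 to 0.49, adjusted p = 0.0175), FEN1 at 0.31 (95% interval 0.13 to 0.49, adjusted p = 0.0276) and CHAF1B at 0.27 (95% interval 0.10 to 0.44, adjusted p = 0.0372). The lower were RBL1 at -0.62 (95% interval -0.91 to -0.34, adjusted p = 0.00765), E2F8 at -0.56 (95% interval -0.85 to -0.28, adjusted p = 0.0129), MCM6 at -0.34 (95% interval -0.48 to -0.20, adjusted p = 0.00426), PRIM1 at -0.34 (95% interval -0.56 to -0.12, adjusted p = 0.0407) and GINS2 at -0.32 (95% interval -0.51 to -0.12, adjusted p = 0.0321). With edgeR on the same 10 libraries 3 and 5 were called. The E2F7 difference of responses was then 0.06 (95% interval -0.24 to 0.37, adjusted p = 0.806), and that of E2F3 -0.16 (95% interval -0.36 to 0.05, adjusted p = 0.291). Across the 47 genes, the responses of the lines had a Pearson correlation of 0.24 (Spearman 0.18) with all libraries and 0.80 (0.78) without the 2, given as a description over genes, which are not independent replicates and share each library.

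**Figure D5:**
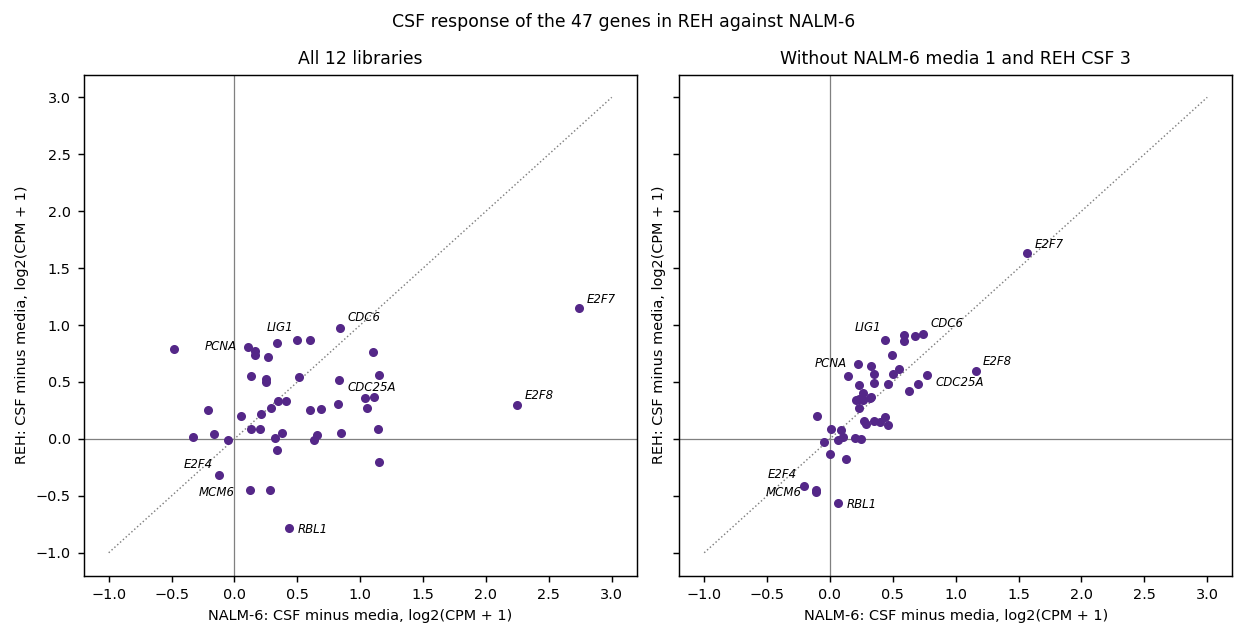
CSF minus media difference in REH (vertical) against NALM-6 (horizontal) for the 47 genes on the log2(CPM + 1) scale, with all 12 libraries (left) and with NALM-6 media 1 and REH CSF 3 left out (right). The dotted line marks equal responses. Points gather along it on the right (Pearson 0.80 against 0.24), with RBL1 and MCM6 below 0 in REH.

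REH was also compared with NALM-6 in the same medium. In media, 4 members were higher in REH and 4 lower, against 26.4% and 13.5% of all genes, and in CSF 3 were higher and 4 lower, against 24.5% and 13.4%. CDC25A was lower in REH in both media. It averaged 53.8 ± 0.514 CPM in REH media and 122 ± 9.09 CPM in NALM-6 media, and 77.6 ± 4.96 CPM in REH CSF and 218 ± 3.98 CPM in NALM-6 CSF (SD, n = 3 each). The differences were -1.16 (adjusted p = 7.56e-06) in media and -1.48 (adjusted p = 8.47e-07) in CSF. CHAF1B was higher in REH at 118 ± 3.09 CPM against 77.8 ± 2.48 CPM in NALM-6 in media, and at 217 ± 8.59 against 118 ± 1.28 CPM in CSF (0.59, adjusted p = 0.000741 and 0.87, adjusted p = 3.57e-05). LIG1 was higher in REH by 0.48 (adjusted p = 0.0097) in media and 0.85 (adjusted p = 0.000183) in CSF. In media, the calls of CHAF1B and LIG1 were lost with median-of-ratios scaling (adjusted p = 0.0754 and 0.189) and edgeR (0.0737 and 0.18).

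In media, RBL1 was higher in REH by 0.87 (adjusted p = 0.0358) and PRIM1 by 1.20 (adjusted p = 0.0478), while RPA2 was at -0.48 (adjusted p = 0.0333), TIPIN at -0.41 (adjusted p = 0.0349) and GINS3 at -0.36 (adjusted p = 0.0225), all lower. Deviations of same-numbered media libraries of the lines correlated above 0.1, which cannot show that they pair. With the block 2 members were higher and 1 lower, with adjusted p = 0.0627 for RBL1, 0.0596 for PRIM1, 0.0647 for RPA2, 0.0639 for TIPIN and 0.0608 for GINS3. All 5 calls were also lost when any 1 of the 3 REH media libraries was left out (highest adjusted p over the single libraries left out 0.0964 for RBL1, 0.115 for PRIM1, 0.0969 for RPA2, 0.122 for TIPIN and 0.0797 for GINS3). In CSF, RFC2 was higher in REH by 0.57 (adjusted p = 0.00778), a call lost with median-of-ratios scaling and edgeR (0.0899 and 0.0605), and E2F2 at -1.07 (adjusted p = 0.0014), RFC3 at -1.03 (adjusted p = 0.0153) and MCM6 at -0.58 (adjusted p = 0.0184) were lower. RFC3 lost its call without REH CSF 3 (0.055) and MCM6 without NALM-6 CSF 2 or 3 (0.0562 and 0.0572). E2F2 averaged 277 ± 55.3 CPM in REH CSF and 575 ± 5.95 CPM in NALM-6 CSF (SD, n = 3 each).

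In the fit of 10 libraries 9 members were higher and 17 lower in REH in media, against 39.6% and 27.5% of all genes, and 13 were higher and 17 lower in CSF, against 39.8% and 29.2%. All calls made with 12 libraries were among them. CDC25A was at -1.22 (95% interval -1.34 to -1.10, adjusted p = 7.24e-10) in media and -1.44 (95% interval -1.56 to -1.32, adjusted p = 1.37e-10) in CSF, and RFC3 at -1.04 (95% interval -1.16 to -0.91, adjusted p = 9.51e-09) and -0.95 (95% interval -1.08 to -0.82, adjusted p = 2.11e-08). RBL1 was at 0.50 (95% interval 0.30 to 0.71, adjusted p = 0.000417) in media and -0.12 (95% interval -0.32 to 0.09, adjusted p = 0.279) in CSF. CHAF1B was at 0.59 in media and 0.85 in CSF, and LIG1 at 0.42 and 0.85 (adjusted p at most 0.000706). In CSF, RFC2 was at 0.43 (adjusted p = 1.33e-05), E2F2 at -0.92 (8.76e-08) and MCM6 at -0.58 (2.18e-07). In media, PRIM1 was at 0.53, RPA2 at -0.35, TIPIN at -0.36 and GINS3 at -0.37 (adjusted p at most 0.00168).

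Another 45 genes of the same pathways were followed for context, of which 44 were tested. In NALM-6, 3 were higher and 0 lower in CSF, and in REH 4 were higher and 1 lower, shares below the 10.9% and 13.2% of all genes called higher. ASF1B, a histone chaperone that hands histones to chromatin assembly factor, had 292, 294 and 282 CPM in NALM-6 CSF against 133, 167 and 153 CPM in NALM-6 media, and 307, 301 and 349 CPM in REH CSF against 176, 169.7 and 165 CPM in REH media. Its groups were far apart in both lines, and it was higher by 0.94 in NALM-6 (adjusted p = 0.000702) and 0.90 in REH (0.000501). DSCC1, a subunit of an alternative clamp loader, was higher by 0.49 (0.0226) and 0.69 (0.00219). DONSON, which helps assemble the helicase, was higher by 0.97 in NALM-6 (0.0199), and in REH POLD4, the small subunit of polymerase delta, was higher by 0.73 (0.025) and LIN37, a subunit of the DREAM complex, by 0.58 (0.0329). E2F5, a repressor E2F, was lower in REH by a log2 of -0.90 (adjusted p = 0.0488), with 4.54, 3.12 and 5.29 CPM in REH CSF against 7.68, 9.11 and 9.72 CPM in REH media. When the 2 divergent libraries were omitted, 17 were higher and 3 lower in NALM-6, and 21 higher and 8 lower in REH, beside 29.8% and 11.0% of all genes in NALM-6 and 32.1% and 13.7% in REH. Between lines, TFDP2, a DP partner of the E2F factors, was higher in REH than in NALM-6 in media by 1.20 (adjusted p = 0.00122), ORC4 by 0.82 (adjusted p = 0.0385), POLD4 by 0.79 (adjusted p = 0.00704), RPA1 by 0.58 (adjusted p = 0.0319) and RNASEH2B by 0.57 (adjusted p = 0.0174), and DSCC1 was lower at -0.33 (adjusted p = 0.0449). In CSF, POLD4 at 1.25 (adjusted p = 0.000289), RNASEH2B at 0.83 (adjusted p = 0.00188) and LIN37 at 0.52 (adjusted p = 0.0246) were higher, and E2F5 at -1.16 (adjusted p = 0.0054) was lower.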

How the data were processed

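Total RNA was extracted with a column kit and made into dual-indexed, stranded mRNA libraries, per the labels' protocols. The authors deposited 1 table of CPM per gene and library, and the tools listed in the submitters' processing notes are HISAT2 2.1.0, featureCounts, edgeR, Trimmomatic 0.33 and FastQC, with GRCh38 as the build and no roles. Neither the annotation release nor the strand setting used in counting is given in the sources used here. Every deposited CPM value was a whole multiple of the worth of 1 read (100.0% of values within 1e-06), so reads per gene could be recovered. Each library's group and number came from its title.

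The test was limma 3.58.1 (R 4.3.3, with a mean trend) on log2(CPM + 1) for the 14364 genes that reached 1 CPM or more in 3 or more libraries, in 1 fit of the 4 group means with 8 residual degrees of freedom. The pseudocount of 1 understates changes of low genes. P-values were adjusted by Benjamini-Hochberg over all 14364 genes, with 0.05 as the threshold, and intervals are 95% intervals without adjustment. The fit was tested on simulated reads that held no divergent library, so that test does not cover data like NALM-6 media 1 and REH CSF 3. The edgeR 4.0.16 quasi-likelihood test on recovered reads with TMM was an alternative and called 934 genes higher and 407 lower in NALM-6 CSF, 1266 and 347 in REH CSF, 70 and 54 for the difference of responses, 3106 and 2991 for REH against NALM-6 in media, and 3229 and 2229 in CSF. Each line alone, median-of-ratios scaling, a stricter filter (5 CPM) or none, pseudocounts of 0.25 and 5, a replicate block, and leaving out each library in turn or both divergent ones were also tried. Where a comparison is left with 1 or 2 libraries in a group, their spread is assumed to be like that of the other groups.

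Whether same-numbered libraries pair was checked by the correlation of their deviations from the group means. It was 0.36, 0.19 and 0.17 within NALM-6 and 0.4, 0.14 and 0.31 between the lines in media, all above 0.1. Values with the replicate block are therefore given there, though this cannot show that the libraries pair. The main fit used no pairing. Within REH it was -0.46, 0.24 and -0.32, and between the lines in CSF -0.35, 0.03 and -0.17. Block values of single genes are not given for those comparisons.

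No pair of libraries agreed within sampling noise. Limits from a count of 0 cover counting error only. Every member is named with its values in each library, and of the other pathway genes those called. Gene positions are from GENCODE 29 on GRCh38. A gene of the B-lineage marker list is not reported here. The 47 genes and all lists were chosen with earlier results of these data known.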

Additional observations from a re-analysis of the deposited data

How the results depend on the processing

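Of 813 values of called members under the alternatives, 652 kept direction and call, 161 lost the call and 0 turned direction. In NALM-6, members higher in CSF numbered 3 with the line alone, 4 each with edgeR and median-of-ratios scaling, and 2 with the replicate block. Without NALM-6 media 1 and REH CSF 3 they numbered 33, or 26 with median-of-ratios scaling and 27 with edgeR as well. In each of those last fits 2 members were lower, E2F4 and MCM6. In REH, 5 were higher with edgeR, 4 with median-of-ratios scaling, 5 with the replicate block and 29, 27 and 26 without the 2 libraries (limma, median-of-ratios, edgeR). Members lower in REH CSF numbered 2 with the line alone, with edgeR and with median-of-ratios scaling, and 5, 6 and 6 without the 2 libraries. The difference of responses was called higher for 5, 5 and 3 members and lower for 5, 4 and 5 in those same 3 fits. For REH against NALM-6 in media, 1 was higher with edgeR, 2 with median-of-ratios scaling, 2 with no filter and 2 with the replicate block, and 9, 8 and 8 without the 2 libraries, while 10, 9 and 1 were lower with edgeR, median-of-ratios scaling and the block, and 17, 25 and 23 without the 2 libraries. In CSF, 13, 6 and 5 were higher without the 2 libraries, 8 were lower with median-of-ratios scaling, and 17, 18 and 21 were lower without the 2 libraries. The fits that combine another scaling or tool with leaving out the 2 libraries were chosen after seeing the data. The share of all genes called also changed between fits, so these counts describe the fits and not the members alone. The cause of these changes was not tested.

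Leaving out each library in turn gave 3 to 15 members higher and 0 to 0 lower in NALM-6 CSF, 8 to 21 higher and 0 to 4 lower in REH CSF, 0 to 0 for both directions of the difference of responses, 2 to 7 higher and 1 to 9 lower for REH against NALM-6 in media, and 3 to 7 higher and 3 to 13 lower in CSF. In REH and between the lines in CSF the replicate block changed counts, but the same-numbered libraries there did not all correlate above 0.1. Not every library correlated best with its own number in any of the 4 pairs of groups checked, NALM-6 and the lines in media included. At these depths counting error is small beside the spread between libraries, and 3 libraries per group limit the precision.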
